A study of Mus musculus with 6 samples.

Results

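The genes described here were selected on their measured values as lower in tibialis anterior (TA) muscle of iMS*Bmal1*-/- than of iMS*Bmal1*+/+ mice. In the authors' normalized counts, a gene had to average at least 50 over the 6 libraries, all 3 iMS*Bmal1*-/- libraries had to lie below all 3 iMS*Bmal1*+/+ libraries, and the iMS*Bmal1*+/+ mean had to be at least 1.6 times the iMS*Bmal1*-/- mean. Of the 52636 genes in the table, 2565 reached that average and 43 of these (1.68%) met the whole rule. *Sphk2*, *Thra* and *0610040F04Rik* were set aside, which left 40 genes. Because this contrast chose them, their difference between genotypes is given as a description and without a test. For each gene, the gene on the opposite DNA strand was looked up, here called its facing gene.

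TA muscle RNA was sequenced from C57BL/6 male mice, 3 of them iMS*Bmal1*+/+ and 3 iMS*Bmal1*-/-. The labels number the libraries as separate samples, and each was taken as 1 mouse and p-values measure the spread between these samples. Both groups carry floxed *Bmal1* and the HSA-MCM transgene, a Cre recombinase that tamoxifen activates and that a skeletal actin promoter limits to skeletal muscle fibers, so *Bmal1* stays intact in the other cells of the tissue. At 12 to 16 weeks of age the iMS*Bmal1*-/- mice were injected daily with 2 mg of tamoxifen over 5 days, the iMS*Bmal1*+/+ mice were given ethanol in sunflower seed oil instead, and muscles were frozen 5 weeks later, all under a cycle of light and dark of equal length. Knockout and tamoxifen therefore cannot be told apart in these libraries.

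*Bmal1* (annotated as *Arntl*) encodes a transcription factor of the circadian clock, which pairs with CLOCK, binds E-boxes and drives clock genes and many genes of tissue metabolism. In skeletal muscle the clock times the use of glucose and fat. Many loci are transcribed on both strands, as pairs of genes that overlap at their starts or ends or as antisense RNAs within a gene, and a library that keeps the strand can separate them only if reads are counted with the matching setting.

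Counts on genes totaled 2091912, 1997203 and 2716079 for the iMS*Bmal1*+/+ mice against 2403438, 1616290 and 2068657 for the iMS*Bmal1*-/- mice. A count of 0 allows up to 3, or 1.1 to 1.86 CPM (counts scaled to the library total) depending on the library, which covers counting error only. *Bmal1* had raw counts of 5, 4 and 11 in iMS*Bmal1*+/+ mice against 13, 5 and 5 in iMS*Bmal1*-/- mice, which overlap and are too few to check the labels. *Gm45355*, an antisense gene, faces *Bmal1* over 33 bp of exon. Its normalized counts were 96.8, 75.7 and 86.5 in iMS*Bmal1*+/+ mice against 55.7, 50.8 and 89.7 in iMS*Bmal1*-/- mice, and these also overlap (log2 fold change -0.36, standard error 0.21, edgeR adjusted p = 0.544). The log2 fold change was -0.22 on leaving out iMS*Bmal1*-/- replicate 2 and -0.67 on leaving out replicate 3 of that group.

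Values below are the authors' normalized counts, which are raw counts divided by 1 size factor per library, and libraries are given in the order of their replicate numbers. The strand setting of the counting is not given in the sources used here. The fast-fiber calcium pump *Atp2a1* had 782 normalized counts per kb of exon in iMS*Bmal1*+/+ muscle, and *Rabep2*, an endosome gene that faces it over 763 bp of exon, had 53166. The 9 markers of skeletal muscle fibers on the list (*Acta1*, *Ckm*, *Myh4*, *Myh1*, *Myh2*, *Tnnt3*, *Tnni2*, *Atp2a1*, *Actn3*) were all detected and summed to 17243, 22106 and 19966 in iMS*Bmal1*+/+ mice against 23455, 23625 and 27115 in iMS*Bmal1*-/- mice, with *Myh4* the most abundant. Each iMS*Bmal1*-/- sum lay above each iMS*Bmal1*+/+ sum, and none of the 9 genes differed at an adjusted p under 0.05 in edgeR's test. The 4 genes that face their exons summed to 510668, 511575 and 535759 in iMS*Bmal1*+/+ mice against 517100, 470548 and 463301 in iMS*Bmal1*-/- mice, which overlapped, with *Rabep2* the most abundant; 1 of the 4, *Myhas*, fell, as given below. The count of a gene and RNA from the gene that faces it can therefore not be told apart, and every value below is the deposited count of the gene named.

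All 40 genes passed edgeR's filter on low counts, and 30 of them had a lower value in iMS*Bmal1*-/- muscle at an adjusted p under 0.05, where 1.07% of the 6831 genes tested did; this count follows from the rule and nothing is read from it. The ratio of the group means, iMS*Bmal1*+/+ over iMS*Bmal1*-/-, ran from 1.6 to 4.66 with a median of 1.77, and 11 genes reached a ratio of 2. Their mean level over the 6 libraries lay between 52.1 and 2755 with a median of 117, and 8 genes averaged at least 200. The median log2 fold change in edgeR was -0.79.

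GENCODE mouse release M21 holds 39 of the 40 genes. Of these, 20 are protein coding and 19 are not: 11 are antisense genes, 2 are long intergenic RNAs, 2 are unconfirmed transcribed regions (class TEC), 2 are processed pseudogenes, 1 is another pseudogene and 1 is a small nuclear RNA. Protein-coding genes made up 51.3% of them and 61.4% of the 6822 annotated genes tested, and antisense genes made up 28.2% and 18.1%. They lie on 18 chromosomes, at most 5 on any of them (chromosomes 5 and 8). A facing gene was found for 34 of the 39, over shared exon sequence for 25 and only within the gene body for 9. Exon sequence faced another gene in 64.1% of these genes and in 57.1% of the annotated genes tested; none of these shares was tested for a difference.

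**Figure D1:**
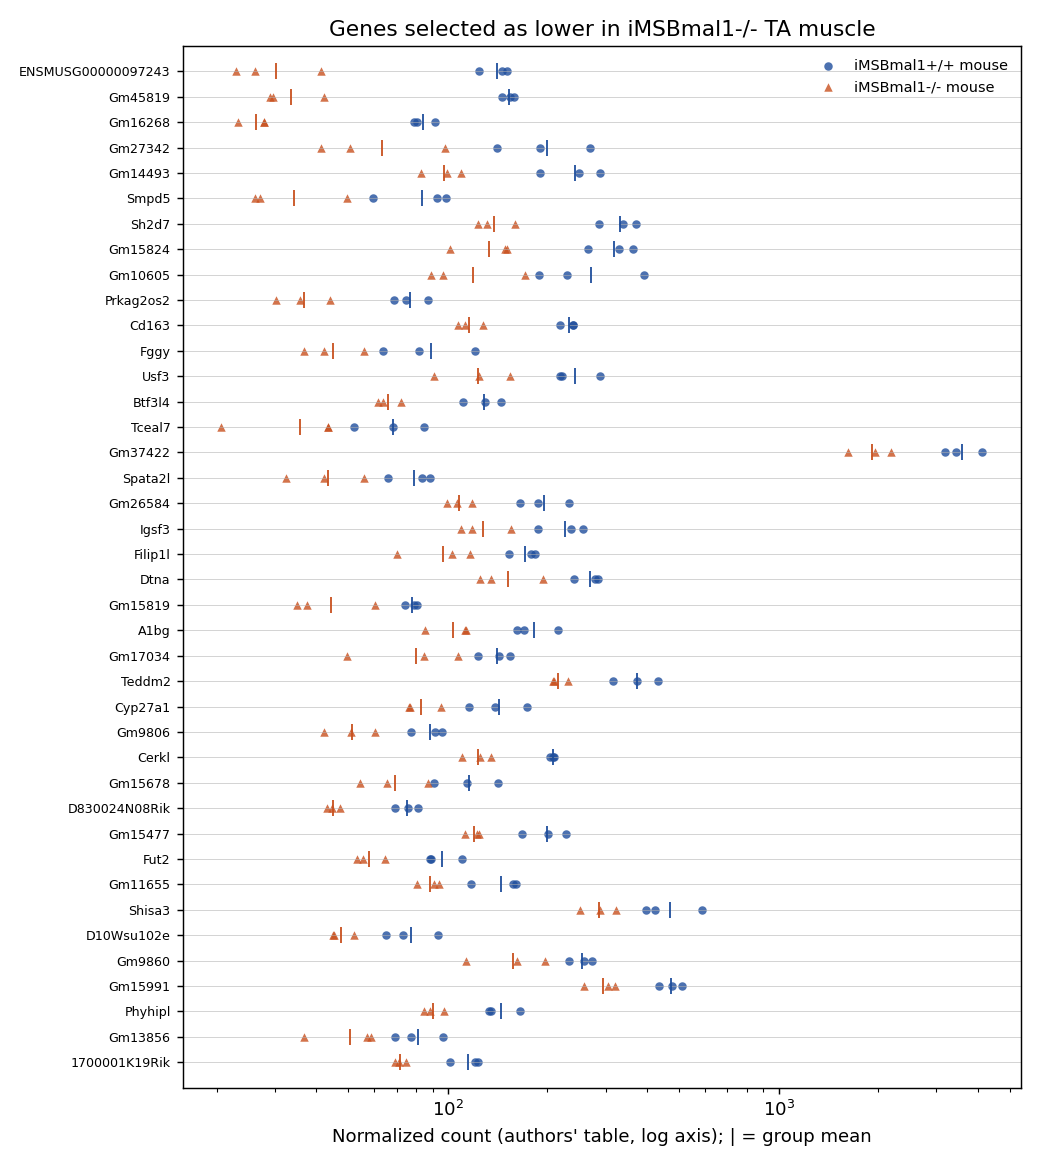
Normalized counts of the 40 selected genes in each library, on a log axis, with iMS*Bmal1*+/+ mice as circles, iMS*Bmal1*-/- mice as triangles and group means as vertical ticks, ordered by the ratio of the means. In each row the 3 triangles lie left of the 3 circles, as the rule requires, and *Gm37422* lies far to the right of the other genes.

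The largest ratio belonged to an Ensembl gene without a name in the annotation, ENSMUSG00000097243, with 125, 151 and 146 in iMS*Bmal1*+/+ mice against 26.1, 23.0 and 41.5 in iMS*Bmal1*-/- mice. Its group means differed by a ratio of 4.66, and no position or facing gene can be given for it. *Gm45819* (ENSMUSG00000109904), a transcribed region of unknown function at chr7:110119990-110121740 on the plus strand, followed with 154.5, 146 and 159 in iMS*Bmal1*+/+ mice against 29.7, 42.3 and 28.9 in iMS*Bmal1*-/- mice (153 ± 6.48 against 33.6 ± 7.51, SD, n = 3, ratio 4.55). In both genes the lowest iMS*Bmal1*+/+ library was at least 3 times the highest iMS*Bmal1*-/- library. *Gm45819* ends 305 bp before the start of *Wee1*, which encodes a kinase that holds back entry into mitosis and is a known clock target. *Wee1* lies on the same strand and had 36.0, 59.7 and 49.2 in iMS*Bmal1*+/+ mice against 8.09, 12.1 and 7.71 in iMS*Bmal1*-/- mice, with no overlap (log2 fold change -2.36, standard error 0.32, edgeR adjusted p = 0.000283). On the other strand, *Gm45819* lies within an intron of *1600010M07Rik*, 25888 bp from its nearest exon. This antisense gene was at 0 in 5 libraries and at 1.93 in iMS*Bmal1*-/- replicate 3.

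*Gm27342* (ENSMUSG00000098788), annotated as a small nuclear RNA of 109 bases, lies at chr13:32758202-32758310 on the plus strand within an intron of *Mylk4*, 8204 bp from the nearest *Mylk4* exon. It had 190.5, 141 and 268 in iMS*Bmal1*+/+ mice against 98.0, 50.8 and 41.5 in iMS*Bmal1*-/- mice, and the libraries spread widely within each genotype, with a coefficient of variation of 32.2% in iMS*Bmal1*+/+ and 47.8% in iMS*Bmal1*-/-. *Mylk4*, on the minus strand, encodes a kinase of the myosin light chain kinase family. Its counts were 41.2, 59.7 and 51.6 in iMS*Bmal1*+/+ mice against 19.8, 18.1 and 27.0 in iMS*Bmal1*-/- mice (50.8 ± 9.27 against 21.6 ± 4.72, SD, n = 3). All 3 iMS*Bmal1*-/- libraries lay below the iMS*Bmal1*+/+ libraries, and *Mylk4* fell by 1.19 on the log2 scale (standard error 0.26, edgeR adjusted p = 0.0207). Among the 15 facing genes that could be tested it was the only one past the threshold of 0.05 by edgeR, where 1.83% of all genes tested were past it in either direction. *Mylk4* had 15 to 65 raw counts per library. Its call depended on single libraries, and the cause of this was not tested. The adjusted p was 0.0766 without iMS*Bmal1*+/+ replicate 2, 0.0556 without replicate 3 of that group, 0.109 without iMS*Bmal1*-/- replicate 1 and 0.108 without replicate 2 of that group, and it ranged from 0.00168 to 0.109 over 12 alternatives, while the fold change stayed between -1.39 and -1.07.

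The annotated RNA of *Gm27342* is printed to show how short the stretch within the *Mylk4* intron is to which these counts were assigned. It is 45.0% G and C and is written in the sense of the plus strand, as GENCODE gives it.
Gm27342: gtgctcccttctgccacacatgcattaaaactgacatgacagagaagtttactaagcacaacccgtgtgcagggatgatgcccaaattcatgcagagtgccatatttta

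**Figure D2:**
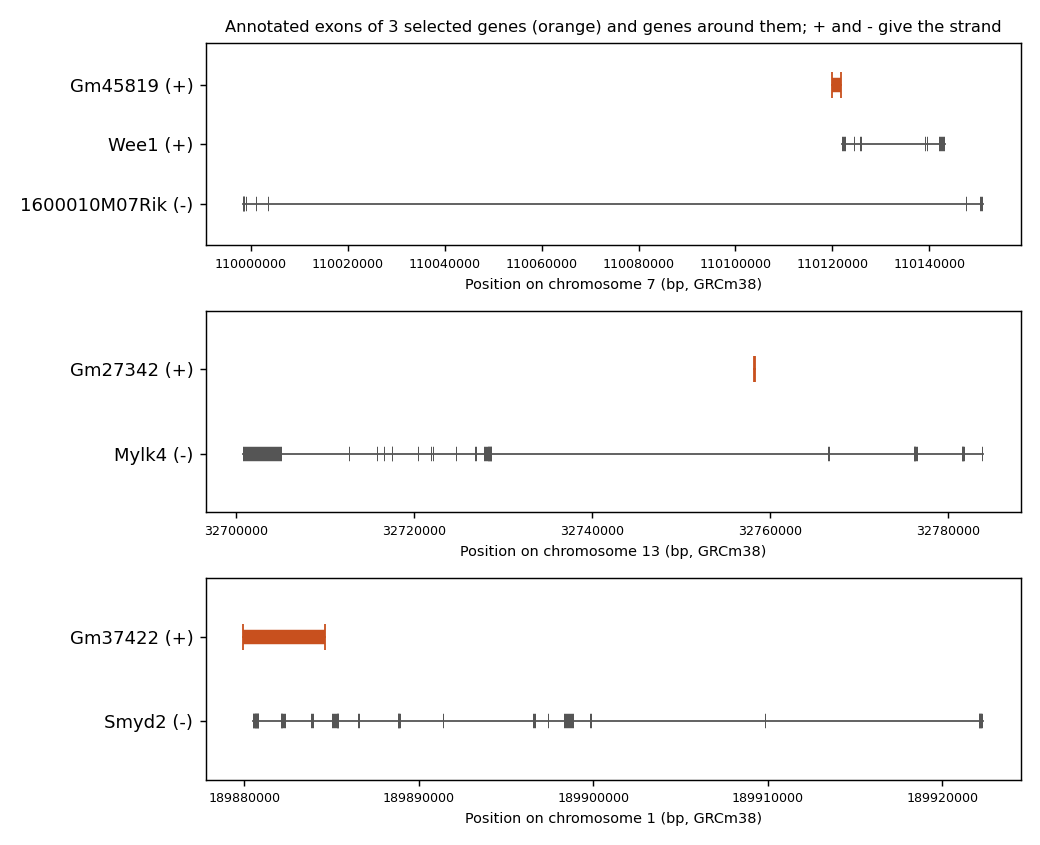
Annotated exons (boxes) and gene bodies (lines) on GRCm38 for *Gm45819*, *Gm27342* and *Gm37422*, in orange, with genes around them in gray; the horizontal axes give the position in bp. *Gm45819* ends 305 bp before *Wee1*, *Gm27342* lies between exons of *Mylk4*, and *Gm37422* covers the end of *Smyd2*.

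The next noncoding genes are placed side by side by what is known of their facing genes, an order chosen for reading that was not tested as a group. *Gm15824*, a processed pseudogene within an intron of *Tbc1d1*, had 265, 329 and 362 in iMS*Bmal1*+/+ mice against 151, 149 and 101 in iMS*Bmal1*-/- mice, a ratio of 2.38. *Tbc1d1*, which encodes a Rab GTPase-activating protein that controls glucose transporter traffic in muscle, had 22.7, 33.0 and 36.5 against 21.6, 16.9 and 20.2, without overlap, and a log2 fold change of -0.62 (standard error 0.29, edgeR adjusted p = 0.416). *Prkag2os2* overlaps 795 bp of exon of *Prkag2*, the gene of a regulatory subunit of the energy sensor AMPK. Its counts were 69.0, 74.6 and 87.3 in iMS*Bmal1*+/+ mice against 44.0, 30.2 and 35.7 in iMS*Bmal1*-/- mice, a ratio of 2.10, with the groups apart. *Prkag2* itself was at or near 0, with 0, 1.07 and 0 against 0.90, 1.21 and 0.96. *Gm17034*, within the body of the hexokinase gene *Hk2*, had 154.5, 143 and 124 against 49.4, 84.6 and 107, and *Hk2* had -0.19 as log2 fold change (standard error 0.31, edgeR adjusted p = 0.88). The log2 fold change of *Hk2* was -0.44 without iMS*Bmal1*+/+ replicate 1, 0.15 without replicate 2 of that group and -0.12 on leaving out iMS*Bmal1*-/- replicate 1.

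*Gm14493* had 249, 288 and 190.5 in iMS*Bmal1*+/+ mice against 99.8, 109.9 and 82.9 in iMS*Bmal1*-/- mice, a ratio of 2.49, and all 543 bp of its exons lie on exon of *Mid1ip1*, whose product promotes fatty acid synthesis. *Mid1ip1* had 0, 5.33 and 8.73 against 2.70, 3.62 and 0.96, which overlap at these low counts. *Gm26584*, which lies opposite the start of the amino acid transporter gene *Slc7a2*, had 165, 188 and 233 against 119, 106 and 99.3. The iMS*Bmal1*-/- libraries of *Gm26584* were close together, and *Slc7a2* had at most 6 raw counts in any library.

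*Gm37422* (ENSMUSG00000104435) was by far the most abundant of the 40 genes, with 3186, 3447 and 4134 in iMS*Bmal1*+/+ mice against 1956, 1624 and 2181 in iMS*Bmal1*-/- mice (3589 ± 490.1 against 1920 ± 280.1, SD, n = 3). It took 30.8 to 38.2% of the raw counts of the 40 genes in each library. This antisense gene runs from 189879935 to 189884652 on the plus strand of chromosome 1 and overlaps the end of *Smyd2*, which encodes a lysine methyltransferase found in the cytoplasm of muscle, over 814 bp of exon. Per kb of exon in iMS*Bmal1*+/+ muscle, *Gm37422* had 761 normalized counts and *Smyd2* had 10.1. *Smyd2* had 37.1, 21.3 and 23.8 against 9.89, 19.3 and 21.2, where all iMS*Bmal1*-/- libraries lay below all iMS*Bmal1*+/+ libraries by a narrow margin (log2 fold change -0.68, standard error 0.35, edgeR adjusted p = 0.458). The log2 fold change of *Smyd2* was -0.42 without iMS*Bmal1*+/+ replicate 1 and -0.39 on leaving out iMS*Bmal1*-/- replicate 1.

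*Gm16268* had 79.3, 91.7 and 81.0 in iMS*Bmal1*+/+ mice against 27.9, 27.8 and 23.1 in iMS*Bmal1*-/- mice, a ratio of 3.20 with little spread in either group. The end of *Gm16268* overlaps the end of *Stab2*, a scavenger receptor gene typical of sinusoidal endothelium, over 141 bp of exon, and *Stab2* had 61.8, 57.5 and 66.7 against 58.4, 64.0 and 59.8. The genotypes overlapped for *Stab2* (log2 fold change -0.01, standard error 0.19, edgeR adjusted p = 0.992), and the direction changed to 0.042 without iMS*Bmal1*+/+ replicate 3 and 0.023 on leaving out iMS*Bmal1*-/- replicate 1. The 4 endothelial markers of the list (*Pecam1*, *Cdh5*, *Kdr*, *Tek*) were detected, summed to 129, 119 and 135 in iMS*Bmal1*+/+ mice against 122, 141 and 77.1 in iMS*Bmal1*-/- mice with *Tek* the most abundant, and overlapped. *Gm10605* overlaps the start of *Tpbgl* over 1168 bp of exon and had 188.5, 229 and 393 in iMS*Bmal1*+/+ mice against 172, 96.7 and 88.7 in iMS*Bmal1*-/- mice. Its variation was the widest of the 40 genes in iMS*Bmal1*+/+ muscle (40.1%), and its highest iMS*Bmal1*-/- and lowest iMS*Bmal1*+/+ libraries were close. *Tpbgl* had 21.6, 24.5 and 29.4 against 16.2, 15.7 and 15.4, with no overlap and a log2 fold change of -0.65 (standard error 0.31, edgeR adjusted p = 0.411). *Gm15819*, within the body of *Rell1*, had 74.2, 78.9 and 81.0 against 60.2, 35.0 and 37.6, and its iMS*Bmal1*+/+ libraries lay within a coefficient of variation of 4.47%.

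Among the protein-coding genes, *Smpd5*, which encodes a sphingomyelin phosphodiesterase, had 98.9, 92.7 and 59.5 in iMS*Bmal1*+/+ mice against 26.1, 49.5 and 27.0 in iMS*Bmal1*-/- mice, a ratio of 2.45. It shares 296 bp of exon at its end with *Oplah*, the 5-oxoprolinase gene of glutathione turnover, which had 71.1, 84.2 and 67.5 against 80.9, 72.5 and 83.9. *Oplah* overlapped between genotypes (log2 fold change 0.13, standard error 0.18, edgeR adjusted p = 0.858), with log2 fold changes of 0.22 without iMS*Bmal1*+/+ replicate 2, 0.051 without replicate 3 of that group and 0.079 on leaving out iMS*Bmal1*-/- replicate 3. *Sh2d7*, which encodes a protein with an SH2 domain, had 287, 338 and 371 in iMS*Bmal1*+/+ mice against 160, 132 and 123 in iMS*Bmal1*-/- mice, a ratio of 2.40. It shares 227 bp of exon with *Cib2*, the gene of a calcium-binding protein, which had 7.21, 18.1 and 9.52 against 7.19, 2.42 and 10.6 and overlapped.

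*Dtna* encodes alpha-dystrobrevin, a part of the dystrophin complex of the muscle membrane, and had 241, 279 and 285 in iMS*Bmal1*+/+ mice against 194, 135 and 125 in iMS*Bmal1*-/- mice. The 3 iMS*Bmal1*+/+ values were close together, and iMS*Bmal1*-/- replicate 1 was the highest of its group. The antisense gene *Gm47898*, which faces 90 bp of *Dtna* exon, had 0.11 as log2 fold change (standard error 0.14, edgeR adjusted p = 0.837), 0.065 without iMS*Bmal1*+/+ replicate 3 and 0.058 on leaving out iMS*Bmal1*-/- replicate 1. *Igsf3*, which encodes a membrane protein with immunoglobulin domains, had 187, 257 and 236.5 against 155.5, 118 and 109.9 and faces the antisense gene *Gm42538* (log2 fold change -0.19, standard error 0.30, edgeR adjusted p = 0.878). The log2 fold change of *Gm42538* was -0.34 without iMS*Bmal1*+/+ replicate 1, -0.0098 without replicate 2 of that group and -0.033 on leaving out iMS*Bmal1*-/- replicate 3. *Filip1l* had 183, 178 and 153 against 117, 70.1 and 103 and lies within the body of *Cmss1* with no shared exon (log2 fold change -0.27, standard error 0.40, edgeR adjusted p = 0.866). Leaving out 1 library changed the direction of *Cmss1*, to 0.19 without iMS*Bmal1*+/+ replicate 3, and gave -0.51 without replicate 2 of that group and -0.54 and -0.13 on leaving out iMS*Bmal1*-/- replicates 1 and 2. None of these 3 facing genes was past the threshold.

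*Teddm2* had 316, 372 and 432 in iMS*Bmal1*+/+ mice against 231, 208 and 209 in iMS*Bmal1*-/- mice, and its start overlaps the start of *Glul* over 116 bp of exon. *Glul* encodes glutamine synthetase, through which muscle releases nitrogen, and had 21.6, 24.5 and 24.6 against 14.4, 18.1 and 11.6. These do not overlap, and the log2 fold change of *Glul* was -0.67 (standard error 0.32, edgeR adjusted p = 0.424). *Tceal7*, which had 84.5, 52.2 and 68.3 against 20.7, 43.5 and 43.4 and the lowest mean level of the 40 genes, faces *Bex1* at its start. *Spata2l* had 83.4, 88.5 and 65.9 against 32.4, 42.3 and 55.9 and faces the end of the cyclin-dependent kinase gene *Cdk10*. *A1bg*, which encodes a secreted plasma protein, had 162, 170.5 and 215 against 85.4, 114 and 113 and faces *4930402D18Rik*, which has no values here. *Fggy* encodes a carbohydrate kinase and had 63.9, 82.1 and 121 against 55.7, 42.3 and 36.6, with iMS*Bmal1*+/+ replicate 3 well above the other libraries. Within an intron of *Fggy* lies the pseudogene *Gm20651*, with 0, 0 and 6.35 against 2.70, 3.62 and 3.86.

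For 5 protein-coding genes no facing gene was annotated. *Cd163*, the hemoglobin scavenger receptor of tissue macrophages, had 239, 239.8 and 219 in iMS*Bmal1*+/+ mice against 112, 128 and 107 in iMS*Bmal1*-/- mice (233 ± 11.7 against 116 ± 10.9, SD, n = 3, ratio 2.01), with little spread in either group. Of the 5 macrophage markers of the list (*Cd68*, *Lyz2*, *Csf1r*, *Adgre1*, *Mrc1*), *Adgre1* was at 0 in every library and *Csf1r* was the most abundant. They summed to 167, 174 and 117 in iMS*Bmal1*+/+ mice against 124, 99.1 and 126 in iMS*Bmal1*-/- mice, so the genotypes overlapped for the sum, and the single marker that could be tested was not past the threshold. The gene that faces these markers, *Hmgxb3*, had 5.15, 3.20 and 4.76 against 0.90, 2.42 and 1.93, without overlap but at counts close to the floor. Fewer cells of a type and less RNA per cell cannot be told apart in RNA from whole muscle, and the part of macrophages in the *Cd163* counts was not tested. With the strand setting not given, whether these counts are *Cd163* RNA itself was not tested either.

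*Usf3*, which encodes a basic helix-loop-helix protein related to the upstream stimulatory factors, had 288, 218.5 and 222 in iMS*Bmal1*+/+ mice against 90.8, 155 and 124 in iMS*Bmal1*-/- mice. *Btf3l4* had 111, 130 and 144.5 against 63.8, 61.6 and 72.3, and in both genes the groups lay well apart. *Cyp27a1* encodes the sterol 27-hydroxylase of bile acid and oxysterol synthesis and *Fut2* a fucosyltransferase. The protein-coding genes nearest to these 5 on the opposite strand were looked up after the values were seen. *Cyp27a1* ends 1030 bp from the end of *Prkag3*, the AMPK subunit gene typical of fast muscle, which had 39.1, 38.4 and 67.5 against 32.4, 26.6 and 26.0 with no overlap (log2 fold change -0.75, standard error 0.27, edgeR adjusted p = 0.21); without iMS*Bmal1*+/+ replicate 3 the log2 fold change was -0.43 (adjusted p = 0.653). *Cyp27a1* had 174, 116 and 139 against 95.3, 76.1 and 77.1. The genes nearest to the others were *Txndc12* for *Btf3l4* (987 bp), *Mamstr* for *Fut2* (2070 bp), *Sidt1* for *Usf3* (12715 bp) and *Pex5* for *Cd163* (66289 bp), each with at most 9 raw counts in any library.

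The other 15 genes had ratios from 1.6 to 1.73 and mean levels from 60.2 to 384. Besides *Cyp27a1* and *Fut2* these were 5 coding genes with a facing gene: *Cerkl*, which faces the integrin gene *Itga4*, *Shisa3*, which faces *Atp8a1*, *D10Wsu102e*, which faces the mitochondrial folate enzyme gene *Aldh1l2*, *Phyhipl*, which faces *Fam13c*, and *1700001K19Rik*, whose intron holds *Gm27299*, annotated as a microRNA and at 0 in every library. Of the noncoding ones, *Gm15477* also faces *Atp8a1*, so these 2 genes share a facing gene, *Gm9806* faces *Vps13a*, *Gm9860* faces *Ush1c*, *Gm15991* faces *Psd3* and *Gm13856* faces *Slc35b4*. *Gm15678* lies in an intron of the M-band gene *Myom2* and *Gm11655* in one of the protein kinase C gene *Prkca*. *D830024N08Rik* covers all 515 bp of exon of *Gm45823*.

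*Gm45823* was the only tested facing gene for which all iMS*Bmal1*-/- libraries lay above all iMS*Bmal1*+/+ libraries, and its values are given for that reason. It had 71.1, 73.5 and 89.7 in iMS*Bmal1*+/+ mice against 122, 122 and 93.5 in iMS*Bmal1*-/- mice (log2 fold change 0.55, standard error 0.17, edgeR adjusted p = 0.137), while *D830024N08Rik* had 81.4, 75.7 and 69.0 against 43.1, 44.7 and 47.2. The difference of *D830024N08Rik* was set by the rule and that of *Gm45823* was not past the threshold. Only 515 of the 2899 bp of *D830024N08Rik* exon face *Gm45823*, so these counts do not compare the strands of the same sequence.

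The 34 genes have 33 facing genes, of which 26 are protein coding and 32 have values. For 12 of the 34, the selected gene lies within the body of the facing gene, and for 5 the facing gene lies within the selected gene. In 10 pairs the genes overlap at both ends and in 7 at both starts. Of the facing genes with values, 15 passed the filter on low counts and 17 did not. The median log2 fold change of those tested was -0.19, with 11 below 0 and 4 above, beside -0.00087 over all 6831 genes. For 5 of the 15, every iMS*Bmal1*-/- library lay below every iMS*Bmal1*+/+ library (*Mylk4*, *Tbc1d1*, *Tpbgl*, *Smyd2* and *Glul*), and this held for 9.57% of all genes tested; whether the shares differ was not tested. In 9 of the 15 the genotypes overlapped. At an unadjusted p under 0.05 there were 4 (*Mylk4*, *Tbc1d1*, *Tpbgl* and *Gm45823*), a level that 814 of the 6831 genes tested (11.9%) reached. In the remaining tested ones, *Itga4*, *Myom2* and *Aldh1l2*, the log2 fold changes were -0.17, -0.15 and 0.19 with standard errors of 0.34, 0.19 and 0.35, none past the threshold. The direction of each changed without 1 library, to 0.12 without iMS*Bmal1*-/- replicate 3 for *Itga4*, 0.0077 without replicate 1 of that group for *Myom2* and -0.0060 without replicate 3 of that group for *Aldh1l2*. Per kb of exon in iMS*Bmal1*+/+ muscle, the selected gene had the higher level in 20 of the 24 pairs with shared exons and values for both, which the minimum level that the rule set for the selected genes alone favors.

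**Figure D3:**
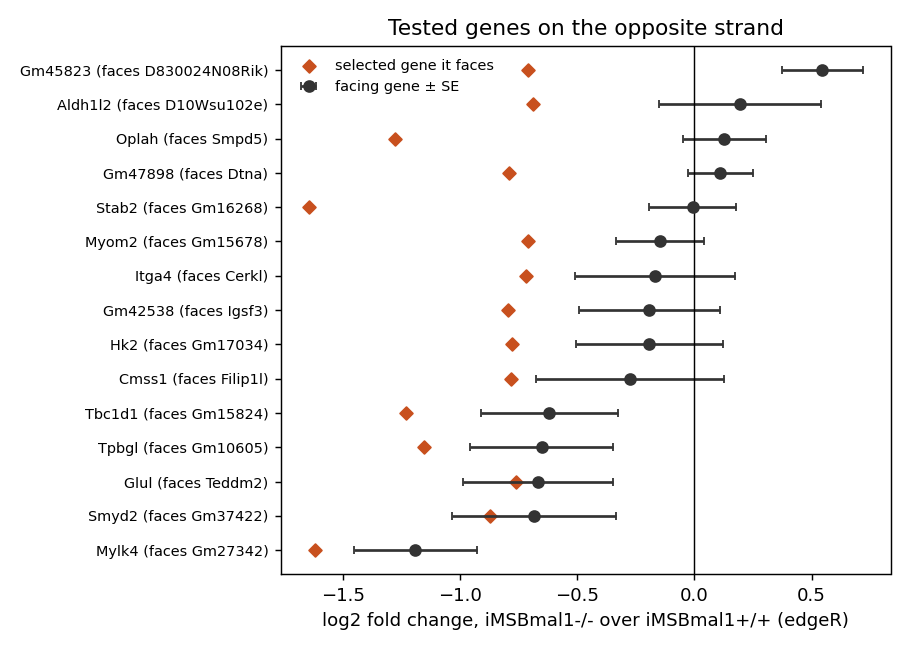
Log2 fold change of the 15 tested facing genes (circles, with bars of 1 standard error) and of the selected gene each faces (diamonds), iMS*Bmal1*-/- over iMS*Bmal1*+/+, from edgeR. *Mylk4* lies at -1.19 and *Gm45823* at 0.55, and the diamonds all lie below 0, as the rule requires.

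Within the groups, iMS*Bmal1*+/+ replicate 3 was the highest library of its group for 22 of the 40 genes and replicate 1 the lowest for 19. In iMS*Bmal1*-/- muscle, replicate 1 was the highest for 20 genes. Relative to its mean over the 6 libraries, the median gene of the 40 stood at 1.22, 1.26 and 1.39 in the iMS*Bmal1*+/+ libraries and at 0.743, 0.674 and 0.688 in the iMS*Bmal1*-/- libraries. Over all 2565 genes that averaged at least 50, these medians were 1.01, 1.00 and 1.03 against 1.00, 0.960 and 0.961. The coefficient of variation had a median of 14.3% (1.49 to 40.1%) in iMS*Bmal1*+/+ and 16.5% (4.01 to 47.8%) in iMS*Bmal1*-/- muscle. *Cerkl* varied least in iMS*Bmal1*+/+ muscle, with 210.1, 208 and 204. Without iMS*Bmal1*+/+ replicate 3, 28 of the 40 genes still met the rule.

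At the fold threshold, *1700001K19Rik* (ratio 1.6), *Gm13856* and *Phyhipl* (1.6 each) and *Gm15991* (1.61) lay just inside. Just outside, with all iMS*Bmal1*-/- libraries below all iMS*Bmal1*+/+ libraries, were *Pde7a* (1.59), *Gm7480* (1.58), *Ccdc107* (1.58) and *Gmpr* (1.57). At the threshold on the mean level, *Tceal7* (52.1), *Gm16268* (55.1), *Prkag2os2* (56.8) and *Smpd5* (58.9) lay just inside, and *Gm29724* (49.2), *Gm48249* (48.9), *Gm45418* (48.1) and *Gm11670* (47.4) just outside. *Gm29724* had a ratio of 4.42, near the top of the range above.

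Lists of muscle genes give the surroundings of these results, and none of the 40 genes is on them. Of the 20 clock output genes, 9 could be tested, and 1 rose and 1 fell, with a median log2 fold change of 0.07, where 1.83% of all genes tested were past the threshold in either direction. An unadjusted p under 0.05 was reached by 4 of the 9, beside 11.9% of all genes tested. *Nr1d1*, which encodes the clock repressor REV-ERBalpha, rose with 289, 275 and 303 against 448, 449.5 and 379, no overlap (log2 fold change 0.58, standard error 0.11, edgeR adjusted p = 0.00965), but the adjusted p was 0.0628 without iMS*Bmal1*-/- replicate 1 and 0.078 without replicate 2 of that group, with log2 fold changes of 0.55 and 0.54. *Wee1* fell, as given above. Of the 8 tested genes that face the clock output genes, 3 are the genes set aside above, which met the rule. Their direction was set by it, so they are described without a test: 374, 366 and 448 against 125, 101.5 and 109 for *Sphk2*, which faces *Dbp*, 299, 295 and 358 against 134, 122 and 116 for *0610040F04Rik*, which faces *Bhlhe40*, and 755, 635 and 760.4 against 396, 347 and 370.2 for *Thra*, which faces *Nr1d1*. None of the other 5 was past the threshold by edgeR, DESeq2 or limma (median -0.28), and 2 of the 5 had an unadjusted p under 0.05, beside the same 11.9%.

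For glucose and lipid handling, 19 of 28 listed genes could be tested and none was past the threshold by edgeR, DESeq2 or limma (median 0.07), where 125 of the 6831 genes were by edgeR. At an unadjusted p under 0.05 there were 7 of the 19, beside 11.9% of all genes tested. *Tbc1d1* and *Hk2* are on this list. Of the 6 tested genes that face its exons, 1 rose: *Zcchc17*, which faces the fatty acid binding protein gene *Fabp3*, with 789.9, 735 and 558 against 1488, 1475 and 1223 (log2 fold change 1.04, standard error 0.13, edgeR adjusted p = 8.01e-05), the only one of the 6 at an unadjusted p under 0.05. For muscle mass and protein turnover, 8 of 20 genes and 4 facing genes could be tested and none passed by edgeR, DESeq2 or limma (medians 0.11 and -0.10, 2 genes and 0 facing genes at an unadjusted p under 0.05, beside the same 11.9%). Among the 12 nuclear receptors and their partners, 4 could be tested besides *Thra*, and none was past the threshold by edgeR, DESeq2 or limma (median 0.35). Of 3 facing genes 1, *Nr1d1*, rose (median 0.28), as given above. In these groups 1 of the 4 and 1 of the 3 had an unadjusted p under 0.05, beside 11.9% of all genes tested, where 1.83% were past the threshold.

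Markers of other cells of the muscle were also summed. The strand setting of the counting is not given, so these sums were not read as cell content. Adipocyte markers (7 genes, *Lep* at 0, *Fabp4* the most abundant) summed to 16.5, 21.3 and 27.0 against 20.7, 25.4 and 21.2, and fibroblast markers (6 genes, *Col3a1* the most abundant) to 55.6, 89.5 and 39.7 against 51.2, 99.1 and 60.7. Both overlapped between genotypes. Slow-fiber genes (6, *Tnni1* at 0, *Atp2a2* the most abundant) summed to 72.1, 92.7 and 92.9 against 81.8, 97.9 and 86.8, and blood markers (5, *Alas2* the most abundant) to 315, 344 and 383 against 439.5, 348 and 333.5, with overlap. Nerve markers (5, *Pmp22* the most abundant) summed to 6.18, 9.59 and 3.97 against 20.7, 8.46 and 6.75, at counts close to the floor. Of the 18 marker genes of all lists that could be tested, none was past the threshold by edgeR or limma and 1 was by DESeq2. At an unadjusted p under 0.05 there were 9 of the 18, beside 11.9% of all genes tested, and the difference between these shares was not tested. Of the 7 tested genes that face their exons, 1 was past it by edgeR: *Myhas*, which faces fast myosin genes and is not among the 40 genes. Of these 7, 3 had an unadjusted p under 0.05, beside the 11.9%, where 1.83% of all genes tested were past the threshold. *Myhas* had 78341, 65701 and 47957 against 43895, 44548 and 35729, without overlap, and fell by 0.60 on the log2 scale (standard error 0.15, edgeR adjusted p = 0.0447). Its call was lost in 8 of 12 alternatives (at least 10 counts in every library, upper-quartile normalization, limma, and leaving out any library other than iMS*Bmal1*+/+ replicate 3), with an adjusted p of up to 0.229 and log2 fold changes from -0.66 to -0.44.

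Promoters from RefSeq (GRCm38.p6, 250 bases before to 50 after each annotated start) were found for 18 of the selected genes and 23 facing genes. The E-box CACGTG, its own reverse complement, was in promoters of 4 of the 18 (*1700001K19Rik*, *A1bg*, *D10Wsu102e*, *Tceal7*) and 2 of the 23 (*Bex1*, *Tpbgl*), where 8.09% of 27025 genes have it. The D-box TTATGNAA, searched on both strands, was in 1 of the 18 (*Cyp27a1*) and in 0 of the 23, against 3.99% of all. The element AGGTCA of nuclear receptors and ROR factors, on either strand, was in 4 of the 18 (*A1bg*, *Btf3l4*, *Phyhipl*, *Sh2d7*) and 5 of the 23 (*Glul*, *Mylk4*, *Prkag2*, *Stab2*, *Tpbgl*), against 18.1%. These matches are descriptions of the sequence and were not tested.

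The promoters below are shown because they hold a motif named above (capitals). *A1bg* and *Tpbgl* have both an E-box and AGGTCA, and *Cyp27a1* has the single D-box. *Mylk4*, the facing gene past the threshold, has AGGTCA in reverse orientation. The promoters are written 5′ to 3′ on the strand of the gene and lie at chr15:60921221-60921520 (minus), chr7:99627054-99627353 (minus), chr1:74713285-74713584 (plus) and chr13:32783915-32784214 (minus).
A1bg: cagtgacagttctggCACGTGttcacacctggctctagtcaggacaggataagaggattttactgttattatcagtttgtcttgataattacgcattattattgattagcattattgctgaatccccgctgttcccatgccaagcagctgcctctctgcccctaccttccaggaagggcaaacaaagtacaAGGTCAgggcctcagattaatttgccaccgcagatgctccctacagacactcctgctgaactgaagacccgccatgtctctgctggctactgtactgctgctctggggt
Tpbgl: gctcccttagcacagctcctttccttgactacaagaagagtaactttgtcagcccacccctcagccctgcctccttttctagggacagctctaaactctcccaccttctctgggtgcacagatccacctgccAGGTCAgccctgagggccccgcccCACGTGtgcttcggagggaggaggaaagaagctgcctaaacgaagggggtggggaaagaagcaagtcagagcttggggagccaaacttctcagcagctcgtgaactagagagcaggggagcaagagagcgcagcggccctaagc
Cyp27a1: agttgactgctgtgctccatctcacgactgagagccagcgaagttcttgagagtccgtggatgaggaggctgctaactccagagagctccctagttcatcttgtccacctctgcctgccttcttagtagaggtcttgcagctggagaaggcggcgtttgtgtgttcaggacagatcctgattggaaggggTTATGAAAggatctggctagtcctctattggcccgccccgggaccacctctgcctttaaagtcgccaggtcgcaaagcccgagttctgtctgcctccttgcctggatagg
Mylk4: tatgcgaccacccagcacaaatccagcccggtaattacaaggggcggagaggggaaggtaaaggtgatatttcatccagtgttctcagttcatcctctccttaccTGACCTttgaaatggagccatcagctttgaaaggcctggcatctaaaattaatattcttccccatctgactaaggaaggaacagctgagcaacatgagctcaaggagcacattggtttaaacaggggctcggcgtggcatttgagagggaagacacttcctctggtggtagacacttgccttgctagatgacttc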

How the data were processed

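Total RNA of 6 TA muscles was depleted of ribosomal RNA and made into stranded libraries. Per the submitters' processing notes, the authors used HISAT2, mm10, HTSeq and DESeq2. The deposited counts are whole reads per Ensembl gene without normalization. The authors also deposited a normalized signal, in which each count is divided by 1 size factor per library (0.828 to 1.26). Tool versions and the annotation release are not given in the sources used here, and 0 columns were left unassigned.

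The members and lists were chosen with earlier results of these data known. Genotypes were compared on the raw counts with TMM normalization and the two-sided quasi-likelihood test of edgeR 4.0.16 (R 4.3.3), after edgeR's filter on low counts, with Benjamini-Hochberg adjustment over 6831 genes and a threshold of 0.05. Log2 fold changes are iMS*Bmal1*-/- over iMS*Bmal1*+/+. A facing gene is the gene of GENCODE release M21 (GRCm38) on the other strand whose exons overlap most, or else whose body does. Values per library were given for the 25 genes with the largest ratios, for facing genes past the threshold and for those of the first 12 genes; list genes past the threshold were named. Values of *Bmal1*, *Smyd2*, *Glul*, *Gm45823*, *Prkag3*, *Gm45355*, *Hmgxb3*, *Cyp27a1*, *Cerkl*, *D830024N08Rik* and the named list genes, with the genes that face them, outside this rule, were added after they were seen. Alternatives were DESeq2 1.42.0, no filter, at least 10 counts in every library, upper-quartile normalization, limma 3.58.1 on log2(value + 1) of the normalized values, the replicate number as a block, each library left out, and other thresholds of the rule. The tests were tried on simulated counts first. Each library was kept as a replicate because the labels number them as separate samples. Libraries of a genotype differed by 3.25 to 13.3 for chi-square over its degrees of freedom. This sets them against counting noise only and does not decide what counts as a replicate.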

Additional observations from a re-analysis of the deposited data

How the results depend on the processing

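The number of genes past the threshold was 125 and became 219 without a filter on low counts. Leaving out 1 library gave 60 (without iMS*Bmal1*-/- replicate 2; 66 without replicate 1) to 109, where fewer samples enter these fits. The count of facing genes past it (1, *Mylk4*) was the same under DESeq2, both other filters, upper-quartile normalization and limma, and ranged from 0 to 1 when 1 library was left out. The median log2 fold change of the 40 genes, -0.79, lay between -0.88 (without iMS*Bmal1*-/- replicate 1) and -0.77 on leaving out 1 library. With a fold of 2 the rule gave 11 genes, with a minimum mean of 100 it gave 23 and with 20 it gave 94. With TMM-normalized counts 34 genes met it, all among the 40, and without 1 library 38 to 56 genes did, with 28 to 37 of the 40.

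Of 250 values of the 21 named genes with a test under these alternatives, 226 kept their direction and their side of the threshold, 1 kept its direction with no adjusted p given (*Cmss1* by DESeq2), 14 lost the call (*Mylk4*, *Nr1d1* and *Myhas*, given above) and 9 changed sign. The sign changes were in facing genes not past the threshold, and the cause was not tested. *Stab2* came to 0.00013 with at least 10 counts in every library and 0.0018 with upper-quartile normalization. On leaving out 1 library, the log2 fold change ranged from -0.057 to 0.042 for *Stab2* (above 0 without iMS*Bmal1*+/+ replicate 3 or iMS*Bmal1*-/- replicate 1), -0.54 to 0.19 for *Cmss1* (above 0 without iMS*Bmal1*+/+ replicate 3), -0.44 to 0.15 for *Hk2* (above 0 without iMS*Bmal1*+/+ replicate 2), -0.44 to 0.12 for *Itga4* (above 0 without iMS*Bmal1*-/- replicate 3), -0.30 to 0.0077 for *Myom2* (above 0 without iMS*Bmal1*-/- replicate 1) and -0.0060 to 0.40 for *Aldh1l2* (below 0 without iMS*Bmal1*-/- replicate 3).

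The replicate numbers are shared between genotypes, but libraries of the same number did not deviate together (correlations from -0.036 to -0.015 across genes), and no library correlated best with its own number. With the replicate block 220 genes were past the threshold, and no call changed among the 21 named genes with a test. The filter on low counts left 17 facing genes with values untested; without it 31 facing genes were tested, and again 1 was past the threshold.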
